A study of Mus musculus with 8 samples.

Results

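The genes described here are Pax8, Nkx2-1, Foxe1, Hhex and Glis3, the transcription factors that specify and maintain thyroid follicular cells. They were taken by name from the arrays, as every non-control spot annotated with 1 of these symbols, and they account for 5 of 34797 gene names, 7 of 55681 probes and 16 of 59305 spots. The study exposed mouse thyroids in vivo to 99mTcO4-, the pertechnetate anion of technetium-99m, which thyrocytes take up through the sodium/iodide symporter NIS (Slc5a5), and compared gene expression with that of control mice. RNA came from thyroids of female Balb/c mice aged 8 weeks on a normal iodide diet, 4 exposed to 30 Gy (S539, S588, S589 and S590) and 4 controls (numbered 1 to 4), each collected at 24 h and hybridised to its own array of 1-colour Agilent 60-mer probes. The controls are called untreated in 1 place of the study's text and saline-injected in another. All 8 arrays shared 1 slide and 1 scan, and because exposed thyroids filled slide positions 1 to 4 and control thyroids positions 5 to 8, position and exposure cannot be told apart. The question asked of these genes was whether the factors that keep the thyrocyte programme running changed after exposure, when NIS messenger RNA was low.

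Pax8 is a paired box protein and Nkx2-1 (also called TTF-1) a homeobox protein, and both bind regulatory elements of the thyroglobulin and NIS genes. Foxe1 (TTF-2) is a forkhead protein, Hhex a homeobox protein and Glis3 a Krüppel-like zinc finger protein that acts with Pax8 and Nkx2-1 on NIS. Pax8, Nkx2-1, Foxe1 and Hhex are expressed together in the thyroid bud of the embryo and in the mature follicular cell, and Nkx2-1 is also found in the calcitonin-producing C cells and in lung epithelium.

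What each probe reads was examined first, since Foxe1 and Glis3 were each measured by 2 probes. The main probe of both genes lay in coding sequence of the DNA-binding domain, and these sequences are shown because the results for both genes rest on them. They are given 5′ to 3′ as printed on the array, and capitals mark the codons of the domain stretch by which each was recognised.
Foxe1: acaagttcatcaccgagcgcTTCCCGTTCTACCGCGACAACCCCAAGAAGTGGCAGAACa
Glis3: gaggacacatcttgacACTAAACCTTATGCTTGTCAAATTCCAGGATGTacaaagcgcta
The Foxe1 probe, at chr4:46357310-46357369 on the plus strand of mm9, encodes part of the forkhead domain, and the Glis3 probe encodes part of a zinc finger. Its position, chr19:28428766-28432299 on the minus strand, covers 3534 bases for a probe of 60 bases, so it crosses an exon junction and reads spliced messenger RNA. Neither sequence occurred a second time among the probes. The other 5 probes were at chr2:24276147-24276206 (Pax8, minus strand), chr12:57633119-57633178 (Nkx2-1, minus strand), chr19:37514969-37515028 (Hhex, plus strand), chr4:46359178-46359237 (the other Foxe1 probe, plus strand) and chr19:28337387-28337446 (the other Glis3 probe, minus strand). An exon annotation of mm9 was not used here, so these 5 were not placed in coding or untranslated sequence.

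No member passed the test between exposed and control thyroids. The signal of all 5 factors was lower on average in the exposed group, by 0.09 to 0.85 on the log2 scale for the main probes, but the exposed and control arrays overlapped at every probe. The count past an adjusted p of 0.05 was 0 of 7 probes by limma, and 1 of 7 probes, that of Glis3, had an unadjusted p under 0.05. Over all 55681 probes, 0.781% passed the adjusted threshold and 12.2% the unadjusted one, so neither count stood out from the background. By the methods' t-test 0 of 7 probes passed with or without adjustment. With the deposited values 3 of 7 had an unadjusted p under 0.05 by limma, against 10225 of 55681 probes. With those values 0 of 7 passed after adjustment, against 955 of all probes. The highest unadjusted count by limma in any setting was 4 of 7, with array weights, against 9576 of all probes. The exposed arrays lay wholly on 1 side of the control arrays at 0 of 7 member probes, against 9.11% of all probes. The log2 fold change was below 0 at 7 of 7 probes, with a median of -0.57, against 49.2% of all probes and a median of 0.01 over all of them. The 7 probes come from 5 genes and the same 8 arrays, so they are not 7 separate observations. In whole thyroids, fewer follicular cells and less RNA per cell cannot be told apart.

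**Figure D1:**
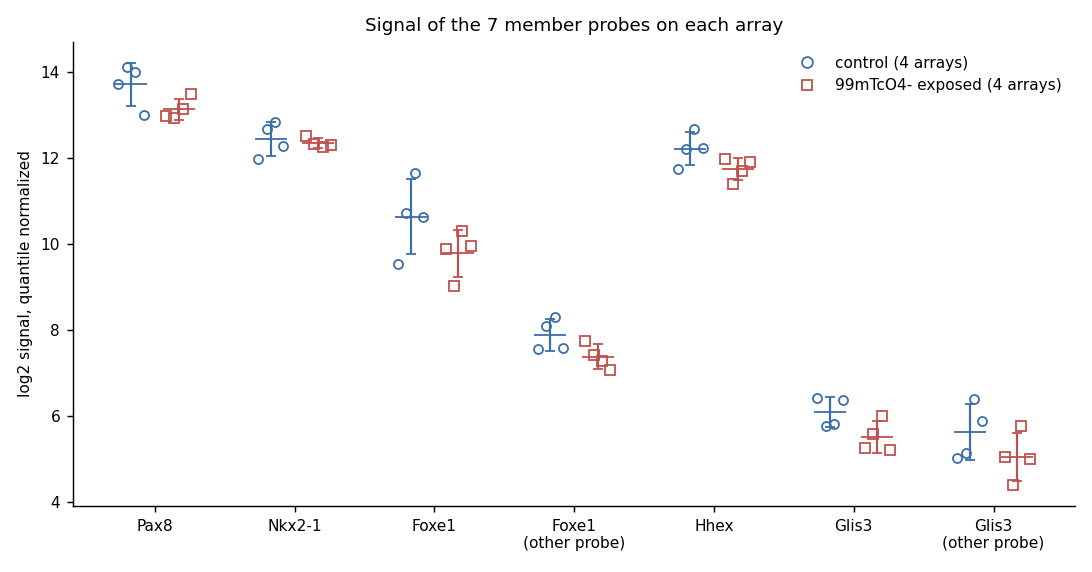
Quantile-normalized log2 signal (y axis) of the 7 probes of the 5 factors (x axis) on each of the 4 control arrays (circles) and the 4 exposed arrays (squares), with the group mean (horizontal bar) and SD (error bar, n = 4). The groups overlapped at each probe, and the control arrays were spread most widely at the main Foxe1 probe, from 9.52 to 11.64.

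Pax8 was bright on every array. Its log2 signal was 13.72, 14.11, 13.99 and 13.00 on control arrays 1 to 4, and 12.98, 12.93, 13.13 and 13.47 on exposed arrays S539, S588, S589 and S590. Controls 1, 2 and 3 were above all exposed arrays, while control 4 lay 0.73 below the next control and within the exposed range. The group means were 13.71 ± 0.50 (SD, n = 4) and 13.13 ± 0.25 (SD, n = 4), a log2 fold change of -0.58 (SE 0.27, adjusted p = 0.437 by limma). On the linear scale this was 0.670 of the control level, with a 95% confidence interval from 0.437 to 1.03. The two-sided exact permutation test over the 70 assignments of the 8 arrays gave p = 0.0857. Without control 4 the log2 fold change was -0.82, with an adjusted p of 0.187 by limma.

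Nkx2-1 changed least of the 5 in the group means. Its log2 signal was 11.98, 12.66, 12.83 and 12.26 on control arrays 1 to 4, and 12.51, 12.32, 12.25 and 12.31 on S539, S588, S589 and S590. All exposed arrays lay inside the control range, which ran from control 1 to control 3. The log2 fold change was -0.09 (SE 0.21, adjusted p = 0.890 by limma), or 0.942 of the control level with an interval from 0.676 to 1.31. Without control 3 the sign turned, to 0.048 on the log2 scale, and without control 1 it was -0.24.

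The array held 10 spots of the Nkx2-1 probe, so for this factor alone the spread within an array is known beside the spread between arrays. The SD among the 10 spots was 0.04 to 0.16 in log2 units on the 8 arrays, with a median of 0.07. The SD between control arrays was 0.39 and that between exposed arrays was 0.12. The latter 2 values are SDs of array means over 10 spots, and the former is an SD of single spots.

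**Figure D2:**
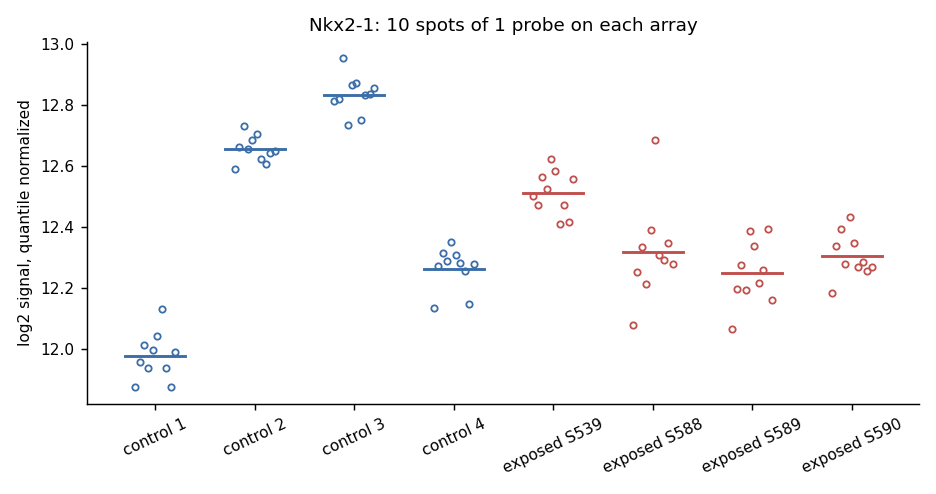
Quantile-normalized log2 signal (y axis) of the 10 spots that carry the Nkx2-1 probe (circles) on each array (x axis; 4 control arrays in blue, 4 exposed in red), with the mean of the spots as a line. The means of the control arrays ran from 11.98 to 12.83 and those of the exposed arrays from 12.25 to 12.51.

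Foxe1 had the largest difference in means of the 5 and the widest spread. On its main probe, the log2 signal was 9.52, 10.72, 11.64 and 10.61 on control arrays 1 to 4, and 9.87, 9.004, 10.29 and 9.93 on S539, S588, S589 and S590. Controls 2, 3 and 4 were above all exposed arrays, and control 1 was below all exposed arrays except S588. The log2 fold change was -0.85 (SE 0.46, adjusted p = 0.499 by limma), or 0.555 of the control level with an interval from 0.265 to 1.17. Leaving out control 1 moved it to -1.22 (adjusted p = 0.206 by limma) and leaving out control 3 moved it to -0.51 (adjusted p = 0.654 by limma).

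The other Foxe1 probe gave a log2 signal of 7.56, 8.08, 8.28 and 7.57 on control arrays 1 to 4, and 7.74, 7.42, 7.26 and 7.05 on S539, S588, S589 and S590. Controls 2 and 3 were again the highest arrays, while controls 1 and 4 fell among the exposed ones. Its log2 fold change was -0.50 (SE 0.23, adjusted p = 0.437 by limma). The log2 fold changes of the 2 probes differed by 0.35, which was within the spread between arrays (two-sided exact permutation p = 0.457). Over the 8 arrays the signals of the 2 probes had a Pearson's r of 0.67, given as a description.

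Hhex behaved like Foxe1 from array to array. Its log2 signal was 11.74, 12.21, 12.67 and 12.22 on control arrays 1 to 4, and 11.98, 11.38, 11.70 and 11.89 on S539, S588, S589 and S590. Control 3 was again the highest array and S588 the lowest, and control 1 lay within the exposed range. The log2 fold change was -0.47 (SE 0.23, adjusted p = 0.458 by limma), or 0.721 of the control level with an interval from 0.499 to 1.04. Without control 1 it was -0.63, with an adjusted p of 0.218 by limma.

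Glis3 was dim, and its value depended on how the background was treated. On the main probe, the log2 signal was 6.40, 5.75, 5.81 and 6.36 on control arrays 1 to 4, and 5.24, 5.56, 5.99 and 5.20 on S539, S588, S589 and S590. Only S589 reached the control range, and the signal was well above background on 8 of 8 arrays. The log2 fold change was -0.58 (SE 0.25, unadjusted p = 0.0459 and adjusted p = 0.401 by limma), or 0.667 of the control level with an interval from 0.450 to 0.991. With the signals not corrected for background it was -0.07, as in the deposited log2 values, with normexp correction it was -0.17, and with arrays scaled to their 75th percentile it was -0.22. The adjusted p by limma was 0.501 to 0.804 in those 4 settings.

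The other Glis3 probe gave a log2 signal of 5.02, 5.14, 6.40 and 5.88 on control arrays 1 to 4, and 5.04, 4.38, 5.75 and 5.00 on S539, S588, S589 and S590. It was well above background on 2 of 4 control and 2 of 4 exposed arrays. Its log2 fold change was -0.57 (SE 0.39, adjusted p = 0.583 by limma), and its signal had a Pearson's r of 0.40 with that of the main probe over the 8 arrays.

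The array order was shared by several factors. Control 1 was the lowest control and control 3 the highest for Nkx2-1, for Hhex, for both Foxe1 probes and for the other Glis3 probe. Pax8 departed from this order, with control 4 lowest, and the main Glis3 probe was highest in control 1. Over the 8 arrays, Pearson's r was 0.93 between Foxe1 and Hhex, 0.71 between Nkx2-1 and Hhex and 0.70 between Nkx2-1 and Foxe1. With each group's mean subtracted, the values were 0.91, 0.79 and 0.74 in the same order, and Nkx2-1 against the main Glis3 probe gave -0.75. These correlations describe 8 arrays that differ in their makeup, as the markers of other tissues show.

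Markers of tissues around the thyroid differed between arrays. For each marker list the linear signals of its genes were added and the log2 of that sum was taken. For 4 cartilage markers it was 12.63 on control 1 and 11.91 on S588, against 9.11 to 10.43 on the other 6 arrays, and these were the arrays of lowest signal for Hhex and the main Foxe1 probe in their groups. The cartilage value followed 1 gene, the matrix protein gene Comp, at 12.56 on control 1 and 11.64 on S588, while the cartilage collagen gene Col2a1 was at 5.38 and 8.94 there. For 6 thymocyte markers the sum was 15.00 on control 1 and 14.14 on control 2, against 10.27 to 11.40 on the others. The sum of 5 skeletal muscle markers was 18.92 to 20.22 in controls and 18.19 to 19.81 in exposed thyroids. Every muscle marker, 2 of 4 cartilage and 2 of 6 thymocyte markers were well above background on all 8 arrays. None of these 3 lists had a gene past the threshold by limma, and their part in the factors' values was not tested. With control 1 and S588 both left out, the log2 fold changes were -0.50 for Pax8, -0.23 for Nkx2-1, -0.97 for Foxe1, -0.51 for Hhex and -0.51 for Glis3, and 0 of 7 probes passed.

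The summed signal of 4 fibroblast markers was lower in the exposed thyroids. It was 16.76 to 17.23 in controls and 16.30 to 16.71 in exposed thyroids, narrowly without overlap. Of the 10 marker lists, only this one had a sum that separated the groups, as 9.11% of all single probes did. The sum followed the brightest gene, Dcn, at 16.5 to 16.8 in controls and 15.8 to 16.2 in exposed thyroids. Col1a1 was at -0.02. The log2 fold change was below 0 for 4 of 4 markers, against 49.2% of all probes. By limma 0 of 4 passed the adjusted threshold and 2 of 4 had an unadjusted p under 0.05, against 0.781% and 12.2% of all probes. These 2, picked after their values were seen, were Pdgfra at -1.05 (adjusted p = 0.113) and Dcn at -0.61 (adjusted p = 0.139). Every thymocyte, muscle and B cell marker also had a log2 fold change below 0, with list medians of -2.01, -1.08 and -0.47. The thymocyte sum was high on controls 1 and 2 only, as given above. Of the B cell markers, 1 of 4 was well above background on all 8 arrays. The part of the fibroblast difference in the factors' values was not tested.

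Other cells that could carry these factors were read in the same way. The sum of 6 C cell markers was 18.25 to 19.21 in controls and 18.74 to 19.23 in exposed thyroids, with 0 of 6 past the threshold. It was lowest on control 1, as was Nkx2-1. Of 6 airway epithelium markers, 1 passed, against 0.781% of all probes. This was Foxj1, a forkhead regulator of motile cilia, which rose by 2.49 on the log2 scale (SE 0.33, adjusted p = 0.0213 by limma). The other 5 did not pass: Krt5 was at -1.66, Cyp2f2 at -0.95, Scgb1a1 at -0.82, Scgb3a1 at -0.44 and Trp63 at 0.17, and the median of the list was -0.63. The exposed arrays were split for Scgb1a1, with a log2 signal of 12.07 and 12.30 on S539 and S588 and 7.10 and 6.38 on S589 and S590. Scgb3a1 was split in the same way, at 13.9 and 14.8 against 9.68 and 9.43. The part of this split in the Nkx2-1 values was not tested. The summed signal of that list was 14.39 to 15.93 in controls and 13.90 to 15.68 in exposed thyroids. No gene passed among 3 parathyroid, 5 endothelial, 4 B cell and 4 adipocyte markers. The thyroid label itself was borne out by thyroglobulin, Tg, at a log2 signal of 18.70 to 19.07 over the 8 arrays. The parathyroid hormone gene Pth was bright as well, at 18.04 to 18.97, so parathyroid signal was present on every array.

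Genes known to respond to radiation were higher in every exposed thyroid than in every control. Cdkn1a, which encodes the cell cycle inhibitor p21, was higher by 3.83 (SE 0.30, adjusted p = 0.0032 by limma) on the log2 scale. Mdm2, which encodes the ubiquitin ligase of p53, was higher by 2.32, and Bax, a pro-apoptotic Bcl2 family gene, by 1.98.

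The genes that these factors serve in the mature thyrocyte responded unevenly. Of 12 thyroid hormone genes, 2 fell and 1 rose past the threshold, and 9 did not pass, against 0.306% of 19965 genes with a RefSeq messenger RNA probe that fell and 0.917% that rose. The median of the list was -0.30 on the log2 scale, against 0.01 over all probes. Slc5a5, which encodes NIS, had a log2 signal of 10.73, 11.92, 12.34 and 10.87 in controls 1 to 4 and 8.17, 8.28, 7.32 and 7.94 in S539, S588, S589 and S590. It fell by 3.53 on the log2 scale (SE 0.41, adjusted p = 0.0137 by limma). Dio1, the type 1 deiodinase that converts thyroxine to triiodothyronine, fell by 2.46 (adjusted p = 0.0153 by limma). Its other probes were at -2.26 (adjusted p = 0.0232) and -1.47 (adjusted p = 0.129), the latter not past the threshold. Duoxa1, the maturation factor of the hydrogen peroxide generating oxidase Duox1, rose by 2.39 (adjusted p = 0.0017 by limma). Its other probes were at 2.40 (adjusted p = 0.0032) and at -0.17, the latter not well above background on any array.

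The other 9 did not pass by limma. The kidney- and thyroid-specific cadherin Cdh16 had a log2 fold change of -1.27 (adjusted p = 0.0931) and the oxidase Duox1 one of 0.86 (adjusted p = 0.0996). Duoxa2, the partner of Duox2, had -1.05 (adjusted p = 0.1003) on its main probe and -2.06 (adjusted p = 0.0245) on another probe. The thyrotropin receptor gene Tshr had -0.36, the pendrin gene Slc26a4 -0.25, the iodotyrosine deiodinase gene Iyd -0.11, Duox2 0.29 and Tg 0.04. The count of 3 depended on the fit: it was 5 or 6 with other background treatments, the filter on dim probes, the variance trend or array weights, and 1, Duoxa1, without control 2, without S589, without S590 or without both control 1 and S588. The adjusted p by limma of Slc5a5 reached 0.0574 and that of Dio1 0.0617 over all alternatives.

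**Figure D3:**
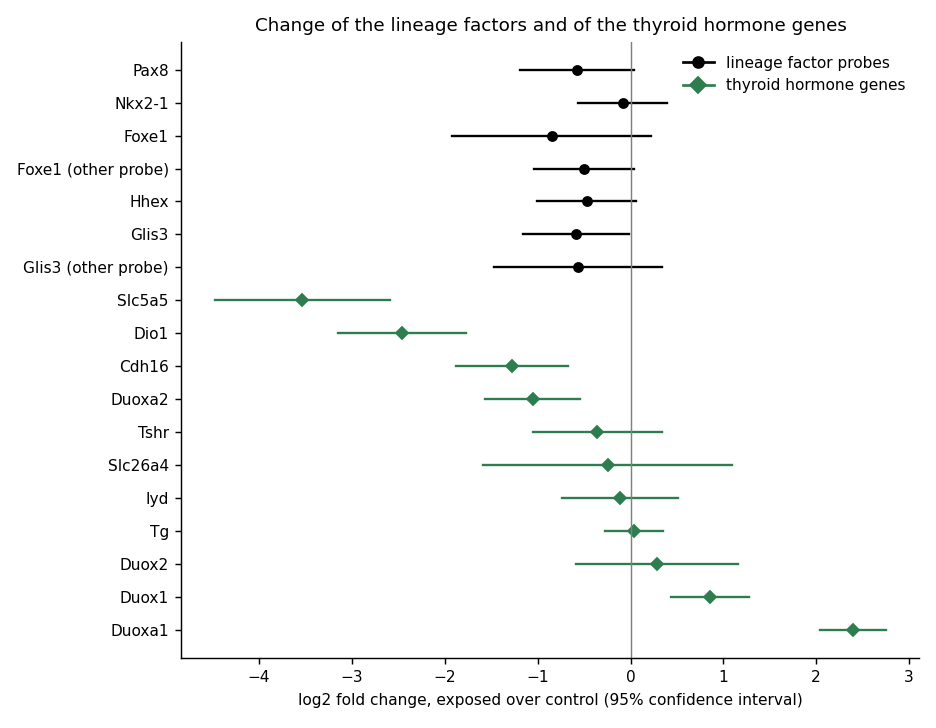
Log2 fold change of exposed over control thyroids (x axis) with its 95% confidence interval, for the 7 probes of the lineage factors (circles, black) and the main probes of the thyroid hormone genes named in the text (diamonds, green). The factors lay between -0.85 and -0.09, while Slc5a5 was at -3.53, Dio1 at -2.46 and Duoxa1 at 2.39.

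Slc5a5 was then set against each factor within arrays, which takes array scaling out of the comparison. Its log2 signal relative to the factor differed between exposed and control thyroids by -2.96 for Pax8, -3.45 for Nkx2-1, -2.69 for Foxe1, -3.06 for Hhex and -2.95 for Glis3. The difference separated all 4 exposed from all 4 control arrays for each factor, with a two-sided exact permutation p of 0.0286, the smallest that 4 against 4 can give, and 0.0286 after adjustment over the 5. Slc5a5 was known to fall when this comparison was chosen. By itself it separated the groups, at 10.73 to 12.34 in controls and 7.32 to 8.28 in exposed thyroids. Its fall was larger than the change of any factor, so the separation largely followed from Slc5a5. The 5 comparisons share its values and are not 5 separate results. Without control 1 or without control 2 the difference for Foxe1 had an adjusted exact permutation p of 0.0571.

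The cofactors of Pax8 and Nkx2-1 did not pass either. Of 10 such genes, 0 passed by limma and 4 had an unadjusted p under 0.05, against 0.781% and 12.2% of all probes, with a median log2 fold change of -0.09. The largest differences were those of Apex1, a redox factor that keeps Pax8 able to bind DNA, at -0.58 (adjusted p = 0.167), and of Smad3, the TGF-beta signal transducer, at -0.57 (adjusted p = 0.282). Wwtr1, the coactivator TAZ that binds both Pax8 and Nkx2-1, was at -0.02.

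Among the members' relatives, 1 of 9 genes passed, against 0.306% of RefSeq genes that fell and 0.917% that rose. Nkx2-9, a homeobox gene of the NK2 class like Nkx2-1, was at 4.56, 5.84, 5.19 and 5.29 in controls 1 to 4 and at 11.07, 9.63, 9.53 and 10.15 in S539, S588, S589 and S590. It rose by 4.88 on the log2 scale (SE 0.40, adjusted p = 0.0035 by limma), and its probe was well above background on 1 of 4 control and 4 of 4 exposed arrays. The rise remained past the threshold in each of the 18 alternatives, where it was 3.32 to 5.13. Its size depended on how the background was treated, since the control signals of this probe were dim. It was 3.32 with normexp correction and 3.54 with none. Nkx2-4, the closest relative of Nkx2-1, was at 0.69 (adjusted p = 0.441 by limma), and the median of the list was 0.16.

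The factors and signals that act upstream in the embryo gave no gene past the threshold. Of 12 regulators of the pharyngeal endoderm, 0 passed and 1 had an unadjusted p under 0.05 by limma: Nkx2-5, a homeobox gene of heart and pharynx, at -1.05 (adjusted p = 0.171). Nkx2-3 was at 0.81 (adjusted p = 0.497). Of 9 inducers of the thyroid bud, 0 passed and 2 had an unadjusted p under 0.05 by limma, Fgf10 at -0.71 (adjusted p = 0.1602) and Fgf8 at 0.55 (adjusted p = 0.371). Both encode fibroblast growth factors. The medians of the 2 lists were -0.17 and -0.10. Over all probes, 0.781% passed the adjusted threshold and 12.2% the unadjusted one.

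The surroundings of the 5 genes were examined by position, with every other probe within 200 kb of a member's probe. Of 42 such probes, 1 passed by limma, against 0.781% of all probes. It was the Nkx2-9 probe already counted among the relatives, 79.2 kb from Nkx2-1 at chr12:57712410-57712469. On the same side, Pax9, a paired box gene, lay 178 kb from Nkx2-1 and was at -0.05 (adjusted p = 0.958). On the opposite side, E030019B13Rik at 41.4 kb was at 0.22 (adjusted p = 0.759). The rise at this locus was thus at Nkx2-9, with Nkx2-1 at -0.09 and Pax9 at -0.05 on either side of it.

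The loci of the other factors had no probe past the threshold. Psd4, 12.6 kb from Pax8, was at -0.54 (adjusted p = 0.527 by limma), and Cacna1b, at 197 kb on the opposite side, was at 0.42. Kif11, a mitotic kinesin gene 19.2 kb from Hhex, was at -0.89 (adjusted p = 0.659), and 4933421H12Rik, at 26.4 kb on the opposite side, was at 0.98 (adjusted p = 0.442). Cacna1b was well above background on 1 of 4 control and 2 of 4 exposed arrays, and Kif11 on 2 of 4 and 2 of 4. Near Foxe1, 5830415F09Rik at 30.6 kb was at -0.08 and the excision repair gene Xpa at 160 kb was at -0.03. That 5830415F09Rik probe was well above background on 2 of 4 control and 0 of 4 exposed arrays. Another probe of it at 33.5 kb, well above background on every array, was at 0.18. AU042950, the only neighbour of Glis3 in the window, at 143 kb, was at -0.51 and not well above background on any array.

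**Figure D4:**
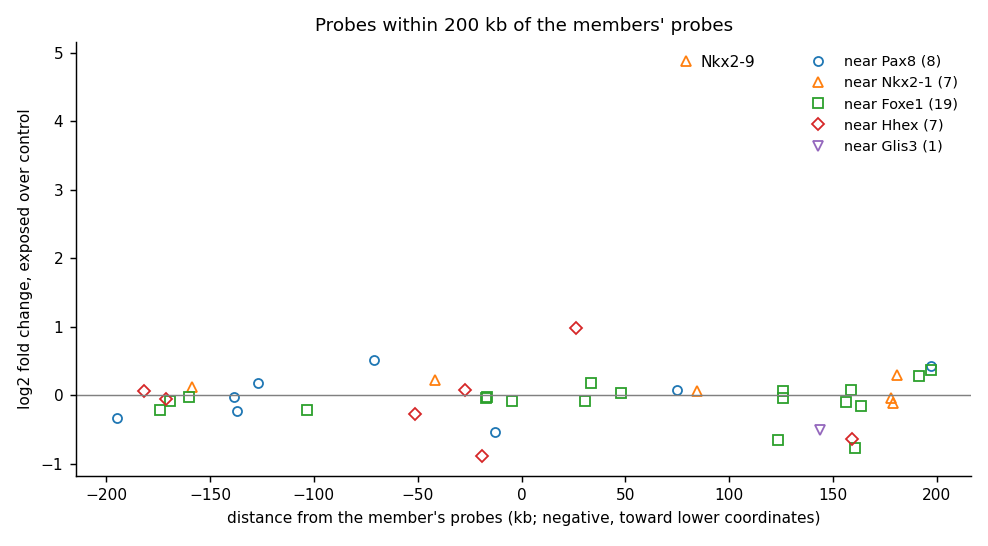
Log2 fold change of exposed over control thyroids (y axis) of the 42 probes within 200 kb of the 5 factors, against their distance from the factor's probes in kb (x axis, negative toward lower coordinates), with the number of probes per locus in the key. Nkx2-9, at 79.2 kb and 4.88, was the only probe past the threshold. The size of its rise depends on the background treatment, since its control signals were dim.

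The promoters were searched for short cores that NK2-class, paired box and forkhead proteins are known to bind. RefSeq windows of 300 bases on GRCm38.p6, from 250 before to 50 after the start of the gene, matched 4 of the 5 factors (Pax8, Nkx2-1, Hhex and Glis3) and 8 of the 12 thyroid hormone genes. Each core was read on both strands. The NK2 core CTCAAG was in 0 of 4 factor windows, in 2 of 8 thyroid hormone gene windows (Duox2 and Slc26a4) and in 15.9% of all 32851 windows. A further NK2 core, CAAGTG, which can share 4 letters with it, was in 0 of 4, in 1 of 8 (Iyd) and in 13.6% of all. The paired box core GTCACGC was in none of these 12 windows and in 2.09% of all. The forkhead core GTAAACA was in none of them either and in 3.65% of all. The windows of Slc5a5, Dio1 and Duoxa1 held none of the 4 cores, which says only that these letters were not there.

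The genes whose signal ran most like that of each factor over the 8 arrays were taken from 14546 genes well above background on every array, and an r near 1 for the best of so many genes describes these arrays only. For Pax8 they were Actr3 (r = 0.98), Cd47 (0.98) and Me2 (0.96). For Nkx2-1 they were Ppp1r9a (0.98), Anxa9 (0.98) and Sdr42e1 (0.97). For Foxe1 they were Adam22 (0.99), Cnksr3 (0.99) and Maoa (0.98). For Hhex they were Nedd8 (0.99), Baiap3 (0.98) and Pla2g4f (0.98), and for Glis3 they were Ccl24 (0.97), Mrpl2 (0.95) and Rexo2 (0.95). None of these 15 genes passed the threshold between exposed and control thyroids by limma, against 0.781% of all probes. They were picked for likeness to probes that did not pass, so this was largely set by the choice.

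The settings of the analysis moved the factors' values without changing a call. Over 18 alternatives, or 19 for Foxe1 and Glis3 with their other probe, the log2 fold change was -0.82 to -0.44 for Pax8, -0.26 to 0.05 for Nkx2-1, -1.22 to -0.50 for Foxe1, -0.63 to -0.32 for Hhex and -0.76 to -0.07 for Glis3. The lowest adjusted p for a main probe was 0.187, for Pax8 without control 4, and the lowest for any of the 7 probes was 0.158, for the other Foxe1 probe with array weights. The scaling to the 75th percentile moved the median of all probes to 0.16, a shift against which the values under that scaling are to be read.

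**Figure D5:**
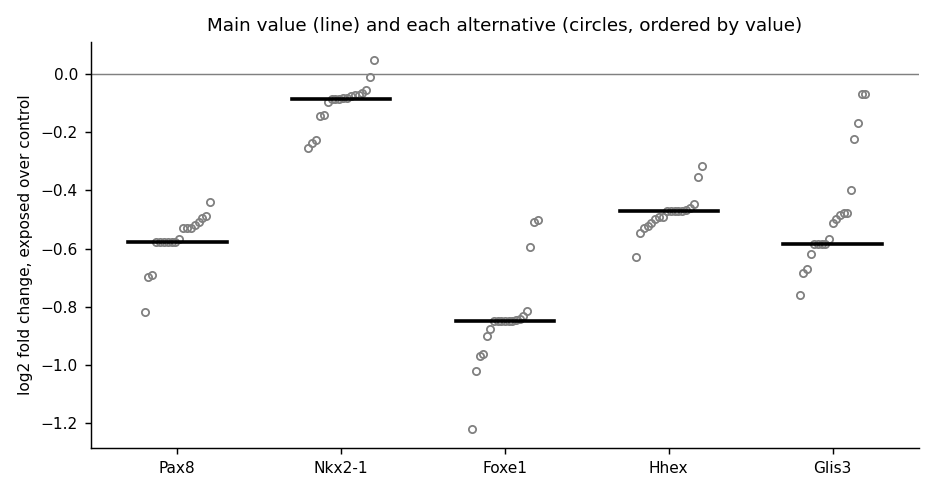
Log2 fold change of exposed over control thyroids (y axis) for the main probe of each factor (x axis): the value reported (line) and the value in each alternative setting (circles, in order of value). All values were below 0 except 1 for Nkx2-1, at 0.05.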

How the data were processed

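Total RNA of 8 mouse thyroids was labelled with Cy3 and hybridised to 8 arrays. The authors deposited the scanner output, with the intensity of each spot from Feature Extraction 10.7.3.1 (probe positions in mm9), and a table of log2 values, quantile-normalized between slides in limma per the methods. The deposited log2 values were checked to be those of the median spot signal (largest difference 0.125). Here log2 of the background-subtracted intensity was quantile-normalized, control spots were left out and spots of a probe were averaged. This subtraction widens the spread of dim probes such as those of Glis3.

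Exposed and control arrays were compared with limma 3.58.1 (lmFit and eBayes) in R 4.3.3, with Benjamini-Hochberg adjustment over 55681 probes and a threshold of 0.05. Single values were tested by a two-sided exact permutation test in Python 3.11.15. In the text, SE and intervals are those of limma and SD is between arrays. The probe of highest mean signal with a RefSeq accession stood for a gene. The fit was tested on simulated data. On each array 60.5% to 77.3% of spots were well above background, no spot was saturated, and 4 arrays a group limit the precision.

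The members and gene lists were chosen with earlier results of these data known. Named genes were every member probe, the thyroid hormone genes, the genes past the threshold and the 2 of largest difference in the 4 other regulator lists, the nearest genes and those past the threshold within 200 kb, the 3 most alike of each factor, and Cdkn1a, Mdm2 and Bax. Of the thyroid hormone genes, 1 is counted with the list and not reported here by name. In marker lists only genes past the threshold were named, except Comp, Col2a1, Pdgfra, Dcn, Col1a1, Pth and the airway markers. These exceptions and Wwtr1 were named after their values were seen. Alternatives were other background treatments, scalings, filters, fits, the deposited values and the methods' t-test (named in the methods for pairs of groups in general, with limma for the arrays), and leaving out each array. The promoter search and the fit without control 1 and S588 were added after seeing the data.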

Additional observations from a re-analysis of the deposited data

Results flagged for a closer look

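Control 1 had an upper quartile of background-subtracted signal of 701, far below the 1144 to 1230 of the other 3 control arrays. It stood apart by Dixon's test among 52 groups of 4 values tested, of which chance would mark about 2.6. Control 1 was also the control of lowest signal for Nkx2-1, Foxe1 and Hhex after normalization. Whether the low upper quartile of control 1 bears on that was not tested. Whether that of the exposed arrays bears on the factors' log2 fold changes was not tested either. Without control 1 the log2 fold change was -0.57 for Pax8, -0.24 for Nkx2-1, -1.22 for Foxe1, -0.63 for Hhex and -0.48 for Glis3, with -0.62 and -0.77 for the other probes of Foxe1 and Glis3.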

How the results depend on the processing

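No paired analysis was possible because the labels give the groups no shared replicate numbers. The count of factor probes past the threshold was 0 in all 18 alternatives. The log2 fold change of Nkx2-1 was -0.24 to 0.048 with 1 array left out, and 0.048 without control 3. Slc5a5 relative to Foxe1 was -3.10 to -2.31 with 1 array left out, and no longer past the threshold without control 1 (-2.59) or control 2 (-2.55). The probes past the threshold numbered 435, of which 75.2% were higher in exposed thyroids. They numbered 856 with normexp correction, 962 with no background correction, 955 in the deposited values, 733 with the filter on dim probes, 744 with the variance trend, 959 with array weights (60.9% higher), 289 by the methods' t-test, 144 without control 1 and S588, and 100 to 485 with 1 array left out. The thyroid hormone genes past the threshold numbered 5 with normexp correction, 6 with no background correction, the deposited values, the filter, the trend or weights, 1 without control 1 and S588, and 1 to 3 with 1 array left out. Thyroid hormone genes near 0 changed sign: Tg was -0.037 with array weights, -0.025 without control 1 and S588 and -0.015 to 0.11 with 1 array left out, Slc26a4 was 0.056 with the 75th percentile scaling and -0.62 to 0.15 with 1 array left out, Duox2 was -0.032 to 0.57 and Iyd -0.26 to 0.046 with 1 array left out. The cause of these changes was not tested. Dim probes limit Glis3 and Slc26a4, the latter well above background on 2 of 4 control and 3 of 4 exposed arrays.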
